A study of Mus musculus with 4 samples.

Results

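The 6 genes described here are the transcription factor genes that set up and carry out the skeletal muscle program: Myod1, Myog, Myf5, Myf6, Pax3 and Pax7. They were taken by name and by position in the mm9 build, and no measured value entered that rule. Earlier results of these data were known when the genes and the values compared were chosen. The genes form 5 gene spans (Myf5 and Myf6 lie side by side and share 1 span), each with 200 kb on either side. The windows held 71 of the 30016 macroH2A islands listed at day 0 and 71 of the 29473 listed at day 5. MacroH2A is a histone H2A variant with a large macrodomain, and an island is a stretch of the genome where reads from macroH2A immunoprecipitation exceed the caller's threshold. The material was C2C12, an established mouse myoblast line. The labels name no genetic change and no agent other than the medium. There was 1 library from myoblasts at day 0 of differentiation medium (low horse serum on Matrigel) and 1 from myotubes at day 5. The antibody is labelled as recognising macroH2A, with no isoform named. Of the 4 samples, the 2 inputs were not analysed here. With 1 library per day no test was made, and each difference is one between these 2 libraries. The lists hold no expression values, so the labelled cell state could not be checked against marker genes.

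Myod1, Myog, Myf5 and Myf6 encode the MyoD family of basic helix-loop-helix factors, which bind the E-box motif and switch on muscle genes. Myf5 and Myod1 commit precursor cells to the muscle lineage, Myog drives the terminal differentiation of myoblasts into myotubes, and Myf6 is most abundant in differentiated muscle. Pax3 and Pax7 encode paired-box homeodomain factors of muscle progenitors: Pax3 acts in the embryonic somite and in migrating limb precursors, and Pax7 marks adult satellite cells. MacroH2A is known for broad domains over silent chromatin, and also for occupying some active and signal-responsive genes.

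RefSeq supplied the 250 bases before the start of 3 of the 6 genes, Myog, Myf5 and Pax7, and they are shown as the stretches just upstream of genes beside which islands differed between days. The build of these sequences is GRCm38.p6, not the mm9 build of the islands. Capitals mark each E-box (CANNTG, which reads as CANNTG on both strands, searched on both). The Myog sequence is from chr1:134289754-134290003 on the plus strand, the Myf5 sequence from chr10:107486135-107486384 on the minus strand and the Pax7 sequence from chr4:139832969-139833218 on the minus strand.
Myog: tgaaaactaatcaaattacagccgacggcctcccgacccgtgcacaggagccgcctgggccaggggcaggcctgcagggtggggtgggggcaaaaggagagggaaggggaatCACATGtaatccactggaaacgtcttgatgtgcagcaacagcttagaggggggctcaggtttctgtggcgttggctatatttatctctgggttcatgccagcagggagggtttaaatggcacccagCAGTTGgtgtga
Myf5: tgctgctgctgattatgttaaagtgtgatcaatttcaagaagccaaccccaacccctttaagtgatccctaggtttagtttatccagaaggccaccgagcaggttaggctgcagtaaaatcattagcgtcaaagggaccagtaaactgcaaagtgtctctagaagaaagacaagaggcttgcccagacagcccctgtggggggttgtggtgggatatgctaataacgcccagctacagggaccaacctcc
Pax7: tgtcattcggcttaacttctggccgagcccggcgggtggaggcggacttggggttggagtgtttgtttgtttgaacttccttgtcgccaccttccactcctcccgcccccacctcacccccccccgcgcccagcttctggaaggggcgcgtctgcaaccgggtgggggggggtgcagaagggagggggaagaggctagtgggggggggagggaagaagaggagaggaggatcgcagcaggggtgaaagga
The Myog sequence held 2 E-boxes, CACATG at bases -138 to -133 and CAGTTG at bases -12 to -7, counted back from the RefSeq start. The Myf5 and Pax7 sequences held 0. Among all 32851 RefSeq promoters of this length, 66.2% held at least 1 E-box and 31.8% at least 2. The 3 also differed in base composition: GC content was 56.4% for Myog, 48.8% for Myf5 and 65.2% for Pax7, and 62.4%, 36.6% and 83.0% of the promoters had a lower value. CpG dinucleotides numbered 7, 3 and 13.

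No island touched a gene of the MyoD family at either day, whereas both Pax genes carried islands at both days in the full lists. The count of genes with an island over the span was 2 of 6 at day 0 and 2 of 6 at day 5. Without the 25% of islands with fewest reads it was 1 at each day, as Pax7 then had none, and the same held at day 5 under a floor of 70 reads per kb raised at day 5 by 1.11, the ratio of the median densities (the scaled floor). A short gene is less likely to meet an island than a long one, so each count was read against every span of the same length on the same chromosome. Of spans of the Myod1 length (2.5 kb) on chromosome 7, 4.18% touched an island at day 0 and 4.85% at day 5. For the Myog length (2.7 kb) on chromosome 1 these shares were 16.6% and 17.6%, and for the joint Myf5 and Myf6 span (15 kb) on chromosome 10 they were 37.9% and 38.3%. The absence of an island from these 3 spans was thus the more common state of their chromosomes. Of spans of 97.0 kb, 43.9% at day 0 and 46.1% at day 5 touched an island on chromosome 1, which holds Pax3, and 41.2% and 39.0% on chromosome 4, which holds Pax7. Over spans as long as the Pax genes, too, having no island was the more common state at both days.

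**Figure D1:**
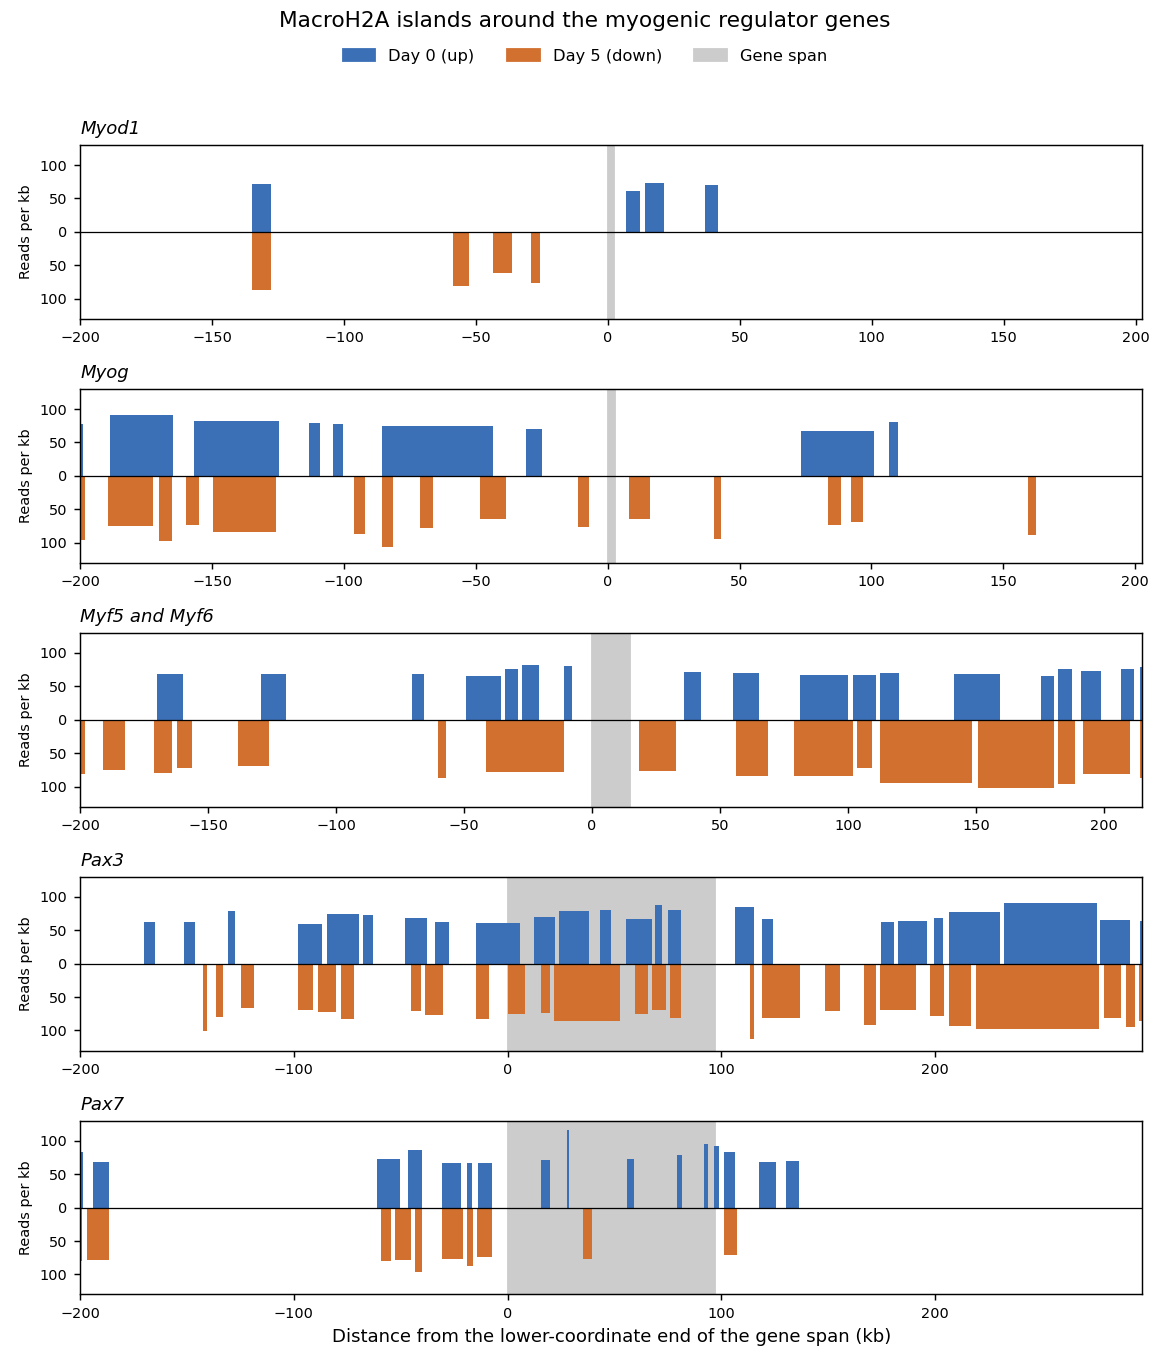
Islands in the 5 windows, by distance in kb from the lower-coordinate end of the gene span (x axis), with read density in reads per kb (y axis) drawn upward for day 0 and downward for day 5; grey marks the gene span. No island lies over the Myod1, Myog and Myf5-Myf6 spans at either day, while islands cover much of Pax3 at both days, and dot Pax7 mainly at day 0.

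Myod1 had the least covered window at both days, and the most covered was that of Pax3 at day 0 and that of Myf5 and Myf6 at day 5. The share of the window covered by islands was 6.11% at Myod1, 35.9% at Myog, 35.2% at Myf5 and Myf6, 50.8% at Pax3 and 15.7% at Pax7 at day 0. At day 5 it was 5.96%, 25.3%, 52.1%, 50.3% and 11.4% in the same order. All 5 windows were more covered than the median position of the same window length on their chromosome at both days. For Myod1 that median was 0, and chromosome 7 as a whole was 2.96% covered at day 0 and 3.52% at day 5. Pax3 stood highest relative to its chromosome: 4.98% of positions on chromosome 1 were covered as much or more at day 0, and 5.33% at day 5. For the other windows that share lay between 11% and 31.8%. Neighbouring positions overlap, so these percentages describe place on the chromosome and are not probabilities.

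**Figure D2:**
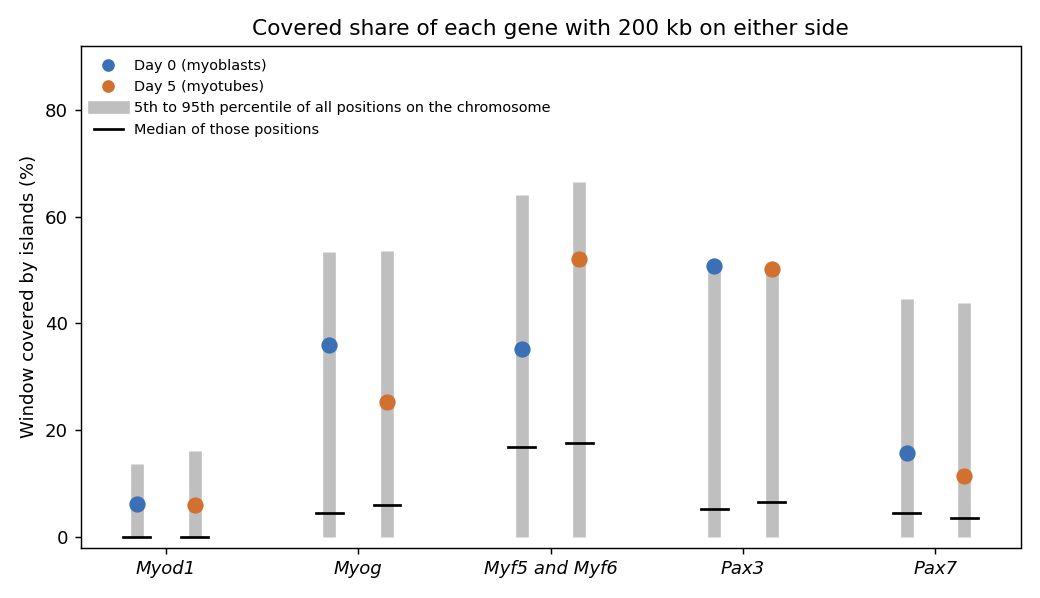
Percentage of each window (gene with 200 kb on either side) covered by islands at day 0 and day 5 (points), with the 5th to 95th percentile (grey bars) and median (black lines) of every position of that length on the same chromosome. Myf5-Myf6 rises from 35.2% to 52.1%, Myog falls from 35.9% to 25.3%, and Pax3 stays near 50%.

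Between days the covered share was higher in 1 window and lower in 4, a tally that depended on the islands kept: 3 windows were higher under a floor of 70 reads per kb in both lists (the unscaled floor) and 2 under the scaled floor. The joint Myf5 and Myf6 window gained 16.92 percentage points, or 70.2 kb. That gain was 35.42 points under the unscaled floor, 27.04 under the scaled floor and 5.58 with a flank of 100 kb. Myog lost the most, with a difference of -10.58 points (-42.6 kb; -15.94 without the 25% of islands with fewest reads and -16.84 under the scaled floor), and Pax7 differed by -4.35 points (-21.6 kb). In the full lists Myod1 differed by -0.15 points and Pax3 by -0.48. The Pax3 difference turned to 22.29 points under the unscaled floor and 8.05 under the scaled floor, and Myod1 turned to 1.49 without the 25% of islands with fewest reads. Taking each 600-bp step of the island grid as a trial, the 95% interval of the difference was 11.71 to 21.98 for Myf5 and Myf6, -15.44 to -5.66 for Myog and -7.64 to -1.05 for Pax7. For Myod1 and Pax3 it held 0, at -2.74 to 2.44 and -5.29 to 4.32. Adjacent steps are not independent, which makes these intervals too narrow. They also treat the days as separate sets of steps, though the steps are the same, and the effect of that on their width was not worked out. Variation between cultures is left out. Set against their chromosomes, a gain as large as that of Myf5 and Myf6 was seen at 5.03% of positions on chromosome 10, a loss as large as that of Myog at 5.07% of positions on chromosome 1, and a loss as large as that of Pax7 at 19.2% on chromosome 4. Among positions whose window held an island at either day, these shares were 5.65%, 7.1% and 27.5% in the same order. The Pax7 difference turned to 2.29 points under the unscaled floor and was -0.88 with a flank of 500 kb and -8.08 with one of 100 kb.

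Myod1 had 4 islands in its window at each day, of which 1 was common to both days. Those listed at 1 day alone lay on opposite sides of the gene. At day 0, 3 islands stood on the higher-coordinate side, towards the neighbouring potassium channel gene Kcnc1, and 1 on the lower side, towards Otog. Myod1 is transcribed towards higher coordinates, so the day 0 group was downstream of it. The nearest was 4.3 kb away, at chromosome 7 from 53638801 to 53644200. It was 5.4 kb wide with 327 reads, or 60.6 reads per kb (the lowest of the 4), against a chromosome median of 72.2. The next ran from 53646001 to 53653200 at 73.5 reads per kb and the last from 53668801 to 53673600 at 70.6. At day 5 none of these 3 was listed, and the higher flank held 0 islands. The nearest listed island on that side was 634 kb from the gene.

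At day 5 all 4 Myod1 islands lay upstream, including the one also listed at day 0. New to the list were islands from 53573401 to 53579400 (81.7 reads per kb), from 53588401 to 53595600 (62.1) and from 53602801 to 53606400 (76.1), the last 25.6 kb from the gene. The island common to both days, from 53497201 to 53504400, had identical ends and went from 71.2 to 87.4 reads per kb, 1.23 times. The genome median of that ratio was 1.14. Counting intervals of these densities were 65.2 to 77.7 and 80.7 to 94.5, and none was computed for the ratio. Whether the ratio differs from the genome median was not tested. Only 7.2 kb of the window was covered at both days, so the part covered at both days was 0.174 of the joint length (the Jaccard index), against 0.478 genome-wide and 0.407 to 0.554 for the other 4 windows. Chromosome 7 was sparsely covered (2.96% at day 0 and 3.52% at day 5), and the index was not computed for it alone. Whether 0.174 is low for that chromosome was not tested. The covered total of the window changed little, 24.6 kb against 24 kb. Within 10 kb of the gene on both sides together, the covered share went from 27.0% to 0. A loss at least that large was found at 1.74% of positions on chromosome 7, where 4.58% had the day 0 coverage to lose as much. All of the day 0 coverage there was the island of 327 reads. Without the 25% of islands with fewest reads, or under either floor of 70 reads per kb, that island was not kept and there was no such loss. The nearest island went from 4.3 kb to 25.6 kb, and 6.63% and 16.4% of spans on the chromosome had one so near or nearer. The 662-kb island-free stretch around Myod1 at day 5 was among 43 of at least that length in the 701 on chromosome 7, and such stretches made up 63.9% of the chromosome. All 8 islands listed in the Myod1 window were narrow, between 3.6 and 7.2 kb, and each rests on 274 to 629 reads. Without the 25% of islands with fewest reads in each list, the nearest lay 11.5 kb from Myod1 at day 0 and 36.4 kb at day 5.

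At Myog, coverage fell over the window while islands appeared close to the gene. Myog lies between the adenosine receptor gene Adora1 on the lower side, which is upstream for this plus-strand gene, and Ppfia4 on the higher side. At day 0 it sat in an island-free stretch of 98.4 kb, with the nearest island 24.9 kb upstream and the nearest downstream 70.8 kb away. At day 5 that stretch was 15 kb. Island-free stretches at least as long made up 69.4% of chromosome 1 at day 0 and 82% at day 5, measured between its outermost islands. A 4.2-kb island from 136175401 to 136179600 on chromosome 1, with 324 reads (77.1 per kb), lay 6.9 kb upstream, and a 7.8-kb island from 136194601 to 136202400, with 499 reads (64.0 per kb), lay 5.4 kb downstream. Neither met a day 0 island. Coverage within 10 kb of the gene went from 0 to 38.5%, a rise reached at 3.74% of positions on chromosome 1, where 16.4% were as covered at day 5. Under the scaled floor neither was kept and the nearest island to Myog at day 5 lay 37.8 kb away. A distance of 5.4 kb or less was nevertheless found for 24.9% of spans on that chromosome at day 5.

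Beyond 50 kb from Myog, listed islands covered less at day 5 than at day 0. The widest day 0 island of the window, 42.0 kb from 136101001 to 136143000 with 3162 reads (75.3 per kb), overlapped day 5 islands over 13.8 kb. The 3 day 5 islands that met it were of 4.2, 4.8 and 9.6 kb. Between 50 and 100 kb from the gene, coverage of both sides together went from 63.1% to 22.8%, and 0.355% of positions on chromosome 1 lost as much or more at that distance, where 4.32% were as covered at day 0. This distance class was one of 20 compared (4 per window), so an extreme place among them carries less weight. The same holds for the distance classes given for the other windows and for that within 10 kb of Myog. On the downstream side a 27.6-kb island from 136260001 to 136287600 (1847 reads, 66.9 per kb) was met by 2 islands of 4.8 kb each. The number of islands in the window went from 9 to 15 and their median width from 10.8 to 4.8 kb. Upstream, the 24-kb and 32.4-kb islands beyond 120 kb were largely retained: day 5 islands covered 21.0 kb and 25.8 kb of them. Where both days had islands, read density at Myog was 1.03 times as high at day 5, the lowest ratio of the 5 windows.

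The Myf5 and Myf6 window gained coverage on both sides, most of it far from the genes. The higher flank, towards Ptprq and upstream of these minus-strand genes, went from 46.7% to 73.7% covered, and the lower flank, towards Lin7a, from 26.4% to 34.5%. Between 100 and 200 kb the higher side went from 46.6% to 89.2%. For both sides together the gain at that distance was 29.1 points, reached at 1.39% of positions on chromosome 10. A pair of wide day 5 islands carried much of it. One ran from 107031601 to 107067600 (36.0 kb, 3413 reads, 94.8 per kb) and the other from 107070001 to 107099400 (29.4 kb, 3002 reads, 102 per kb). At day 0 the same stretch held islands of 7.2, 18 and 4.8 kb at 66.2 to 70 reads per kb. Density over stretches covered at both days was 1.21 times as high at day 5, against 1.14 genome-wide.

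Nearer to Myf5 and Myf6 the changes were smaller and mixed. On the higher side an island from 106937401 to 106951800 (14.4 kb, 1098 reads, 76.2 per kb) was listed at day 5 alone, 3.4 kb from the span, where the nearest higher-side island had been 20.8 kb away. On the lower side the nearest island at day 0, a 3.0-kb island from 106908001 to 106911000 with 243 reads, was not listed at day 5. The other 3 day 0 islands within 50 kb, of 13.8, 4.8 and 6.6 kb, were met by a single 30.6-kb island from 106877401 to 106908000 with 2400 reads. The island-free stretch that holds both genes was 43.8 kb at day 0 and 29.4 kb at day 5. Stretches at least as long made up 63.7% and 67.4% of chromosome 10, measured between its outermost islands. The nearest island was 8.0 kb from the span at day 0, and 46.1% of spans on chromosome 10 had one as near or nearer. With 3.4 kb at day 5, that share was 41.7%. Because Myf5 and Myf6 were placed as 1 span, the values cannot be given for each gene apart, but an island over either would have been counted and there was none.

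**Figure D3:**
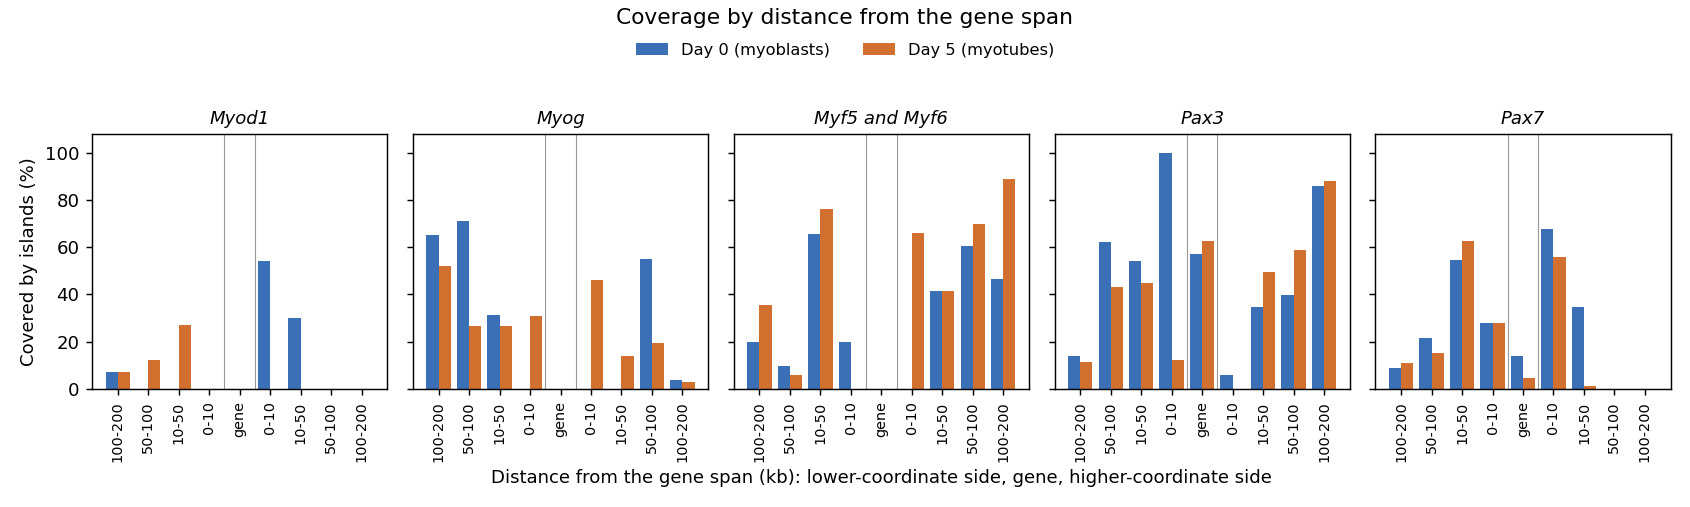
Percentage covered by islands in distance classes from each gene span (x axis, kb, lower-coordinate side to the left and higher-coordinate side to the right of the gene) at day 0 and day 5. Within 100 kb, coverage beside Myod1 lies on the higher side at day 0 and on the lower side at day 5. Coverage beside Myog rises within 10 kb and falls between 50 and 100 kb. The higher side of Myf5-Myf6 between 100 and 200 kb goes from 46.6% to 89.2%.

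Pax3 was the most heavily covered of the genes. Islands covered 57.1% of its 97.0-kb span at day 0, in 7 islands, and 62.5% at day 5, in 6. Spans covered as much or more made up 7.41% and 6.64% of positions on chromosome 1, where the median span had no coverage. The widest island over the gene at day 0 was 20.4 kb, from 78082201 to 78102600 (1255 reads, 61.5 per kb), of which 5.6 kb lay inside the span. At day 5 a 30.6-kb island from 78118801 to 78149400 (2619 reads, 85.6 per kb) was the widest, and it met day 0 islands of 10.2, 13.8 and 4.8 kb. Pax3 is transcribed towards lower coordinates, between the ephrin receptor gene Epha4 beyond its 3′ end and the predicted gene Gm2102 on the other side.

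Coverage of Pax3 stopped short of its 5′ end at both days, at the same grid position. The last island over the gene ended at 78178200 at day 0 (6.0 kb wide, 478 reads) and at day 5 (5.4 kb wide, 442 reads), 15.8 kb inside the higher-coordinate end of the span. From there the next island was 25.2 kb on at day 0 and 32.4 kb on at day 5, so the start of the gene lay in an island-free stretch in both libraries. At the 3′ end the day 0 island that ran across the edge of the span was replaced by 2 smaller ones of 6.0 and 7.8 kb, and coverage of the 10 kb beyond that end went from 100% to 12%. For both sides together the first 10 kb went from 53.0% to 6%, and 1.28% of positions on chromosome 1 lost as much, where 7.8% were as covered at day 0. Beyond the 5′ side, 86.2% and 88.0% was covered between 100 and 200 kb. Its widest islands ran from 78329401 to 78372600 at day 0 (43.2 kb, 3903 reads, 90.3 per kb with a counting interval of 87.5 to 93.2) and from 78316201 to 78373800 at day 5 (57.6 kb, 5618 reads, 97.5 per kb, 95 to 100). The ratio of these 2 densities is below the 1.14 by which stretches covered at both days were denser at day 5 genome-wide, so it does not amount to a relative gain. Of the 5 windows this one had the highest Jaccard index, 0.554. The index tends to be higher where more of a window is covered, here 50.8% at day 0 and 50.3% at day 5. It was not adjusted for that, so the ranking does not show that the 2 maps were most alike here.

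Pax7 carried small islands at day 0 that were not listed at day 5. Over its 97.0-kb span there were 6 islands at day 0, of 4.2, 1.2, 3.6, 2.4, 1.8 and 2.4 kb, with 139 to 298 reads each. At day 5 there was 1, from 139328401 to 139332600 (4.2 kb, 322 reads, 76.7 per kb). None of the 6 overlapped it. Coverage of the gene went from 14.0% to 4.33%, and 25.1% and 35.6% of spans on chromosome 4 were covered as much or more. Pax7 lies on the minus strand, so its start is at the higher-coordinate end, towards Klhdc7a, with the taste receptor gene Tas1r2 on the lower side. At day 0 a 2.4-kb island from 139389601 to 139392000 with 220 reads (91.7 per kb, 80.0 to 105) crossed that end, reaching 0.4 kb into the span. As the span is longer than the 96.5 kb that RefSeq gives the gene, whether this island reaches the first exon cannot be said. At day 5 the island-free stretch around that end was 61.8 kb, a length not compared with other stretches on chromosome 4. Every island over the gene, at either day, was among the 25% with fewest reads. Without these the nearest island lay 4.4 kb from the span at both days.

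The lower flank of Pax7 was steadier than the gene. Within 100 kb on that side, the 3′ side, 5 islands at day 0 and 6 at day 5 lay between 7.2 and 54.6 kb from the span, and each overlapped an island of the other day. The one nearest the gene ran from 139279201 to 139285800 at day 0 (445 reads) and from 139278601 to 139285800 at day 5 (535 reads). On the higher side, the island 4.4 kb from the span began at 139394401 at both days, with 403 reads at day 0 and 426 at day 5. The next 2 on that side at day 0, of 7.8 and 6.0 kb, were not listed at day 5. Beyond them the flank had no island at either day. Of the day 5 coverage in the window 75.6% was shared with day 0, and of the day 0 coverage 54.7%. Genome-wide these shares were 62.7% for day 5 and 66.7% for day 0.

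**Figure D4:**
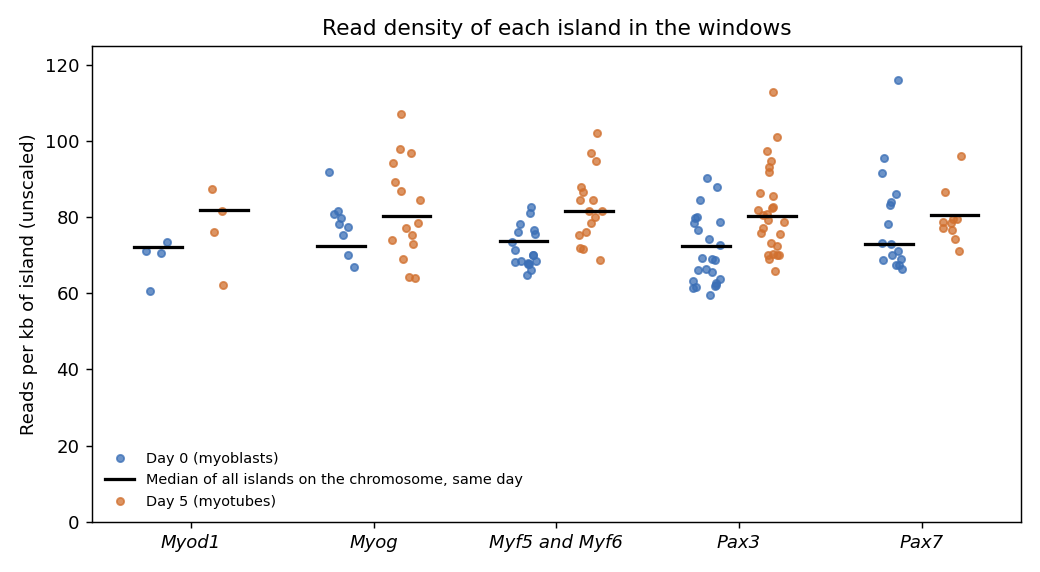
Reads per kb of every island in each window at day 0 and day 5, unscaled (y axis); points are islands and black lines the median of all islands on the same chromosome at that day. Islands of all 5 windows scatter around the chromosome medians, and the chromosome medians are higher at day 5 (80.4 to 82.0) than at day 0 (72.2 to 73.8).

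Read density set none of these windows far apart from their chromosomes. Median island density went from 70.9 to 78.9 reads per kb at Myod1, 78.1 to 78.5 at Myog, 70 to 81.6 at Myf5 and Myf6, 68.9 to 79.9 at Pax3 and 73.1 to 78.7 at Pax7. The chromosome medians lay between 72.2 and 73.8 at day 0 and between 80.4 and 82.0 at day 5. The day 5 list holds 29619426 island reads and the day 0 list 24365482, 1.22 times as many, and these sums are not the sequencing depth. The 25% of islands with fewest reads held under 341 reads at day 0 and under 400 at day 5. All 6 day 0 islands over Pax7 and the 1 at day 5 were among these, as were 2 of the 3 Myod1 islands listed at day 0 alone and 1 of the 3 listed at day 5 alone. Signal below the caller's threshold is not listed, so how much macroH2A lay between islands was not measured.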

How the data were processed

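MacroH2A ChIP-seq of C2C12 was analysed from the 2 island lists, 1 library per day. Each island has a whole-number read count as deposited by the authors, unscaled between days. Bowtie2 2.2.6, SICER 1.1, MACS 1.4.2, CASAVA 1.4 and mm9 appear, without roles, in the submitters' processing notes. Window (600 bp), gap (1200 bp) and FDR (0.01) are read from the list names. The use of input in calling and the handling of duplicates are not given in the sources used here.

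Gene positions came with the choice of genes, rounded, in mm9. Their lengths were checked against RefSeq on GRCm38.p6 (2.62 kb for Myod1, 2.54 kb for Myog, 95.9 kb for Pax3 and 96.5 kb for Pax7), which also gave neighbouring gene names and, for 3 genes, promoters and strand. The strands of Myod1, Myf6 and Pax3 are background knowledge. All 6 genes and the values compared were chosen with earlier results of these data known. Islands crossing a window edge were counted whole and their length clipped. Coordinates count from 1, and overlap means at least 1 bp. Each gene was compared with every position on the 600-bp grid between the first and last island of its chromosome, in place of random draws. Named are all 6 genes, and of their islands those over the gene, nearest to it or widest. Other islands were named after their values were seen. Reads per kb have Poisson 95% intervals, and differences of covered share Newcombe intervals over 600-bp steps, with the days taken as unpaired. Alternatives changed the island lists, flanks, overlap or background. The interval code was tested on simulated data. Computations used Python 3.11.15, NumPy 2.4.6, SciPy 1.17.1, pandas 2.3.3 and matplotlib 3.10.9.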

Additional observations from a re-analysis of the deposited data

How the results depend on the processing

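With 1 library per day, variation between cultures was not measured, and input reads were not analysed here. The 5 differences in covered share were recomputed in 35 ways, of which 24 stayed inside the interval given above. In 5 the sign differed from that in the full lists: Pax3 at 22.29, 8.05 and 0.38 (flank of 500 kb), Myod1 at 1.49 and Pax7 at 2.29. Of these 3 windows, the interval in the full lists left out 0 at Pax7 alone. Leaving out the 25% of islands with fewest reads gave -15.94 points at Myog. The floor of 70 reads per kb without scaling, which cuts the less dense day 0 list more, gave 35.42 at Myf5 and Myf6, 22.29 at Pax3 and 2.29 at Pax7. Raising that floor at day 5 by 1.11, the ratio of median densities, gave -16.84 at Myog, 27.04 at Myf5 and Myf6 and 8.05 at Pax3. A flank of 100 kb gave 5.58 at Myf5 and Myf6 and -8.08 at Pax7, and a flank of 500 kb gave 11.45 and -0.88, by construction over other stretches. For the other changes the cause was not tested. The 2 genes with an island over them became 1 at each day without the islands of fewest reads or when 50% of the gene had to be covered, and 1 at day 5 with the scaled floor, Pax7 dropping out each time. With 5 kb on either side they became 3 at day 0, by adding Myod1, and 4 at day 5. At day 5 a single island 3.4 kb from the joint span added both Myf5 and Myf6. The share of all spans with such flanks that touch an island was not computed. The nearest islands were less stable: at day 5 under the scaled floor they were 37.8 kb from Myog, 52.6 kb from Myod1 and 11 kb from Myf5 and Myf6, so the approach of islands to Myog rests on islands below 77.8 reads per kb. At day 0 the nearest island to Myod1 was 11.5 kb away without the islands of fewest reads and under both floors.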
